A study of Mus musculus with 59 samples.

Results

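The changed neighbours of the E2f3 locus are 10 genes that lie within 20 Mb of E2f3 on mouse chromosome 13 and that stood out in earlier readings of these arrays. The genes are Zscan26, Yae1d1, Exoc2, Zkscan3, Vps41, Ogn, Dsp, Prpf4b, Bloc1s5 and Gmds. All 10 were found, by 25 probe sets annotated to exactly 1 symbol, out of 45037 probe sets tested and 467 probe sets of 244 genes within 20 Mb of E2f3. The members were chosen by the measured contrasts between knock-in and wild-type liver, so their own values are given as a description and carry no test.

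The arrays measured liver RNA of mice aged 4 weeks on a mixed background that the labels write as FVB/NT, 129S1/Svlmj and C57BL/6NT. The groups were wild type (wt, 12 arrays), an E2f3a knock-out (3aKO, 10 arrays), an E2f1 knock-in (1KI, 10 arrays) and an E2f3b knock-in (3bKI, 5 arrays). The labels do not give the insertion site of the knock-ins; published lines of these names carry E2f1 or E2f3b coding sequence at the E2f3a site, and that is background here and not a measurement. The wt and 3aKO arrays were deposited in both of 2 normalizations, the first with 1KI and the second with 3bKI, so that 59 columns hold 37 arrays. Both knock-ins were compared with the same wt and 3aKO arrays, and 1KI and 3bKI were not compared directly because they were normalized apart. Nothing in the labels ties each array to an animal of its own, so error terms measure the spread between arrays, which may be technical.

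When an allele is made in embryonic stem cells of one strain and bred into another, the chromosome around it comes along, and genes linked to it can keep the variants of the donor strain for many generations. Strain variants in such a segment can alter the level of a transcript, and they can also alter how well a short array probe binds it, without any effect of the engineered gene. A carried segment would be shared by alleles made in the same cells, and the comparison below therefore asks which members differed from wt in 1, 2 or 3 of the alleles. E2F proteins bind a short GC-rich motif near the start sites of cell cycle genes, and E2f3 gives rise to the isoforms 3a and 3b from separate promoters.

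The members fall in several roles. Zscan26 and Zkscan3 encode zinc finger proteins with a SCAN domain. Vps41, Exoc2 and Bloc1s5 encode subunits of HOPS, the exocyst and BLOC-1, which act in vesicle tethering and in the making of lysosome-related organelles. Gmds makes the precursor of GDP-fucose, Yae1d1 acts in the maturation of an iron-sulfur protein, Prpf4b is a kinase of the spliceosome, Dsp is the desmosome protein desmoplakin, and Ogn is the small leucine-rich proteoglycan osteoglycin. Distances were taken from the GRCm38.p6 gene table of RefSeq. Toward lower coordinates from E2f3 lie Zscan26 and Zkscan3 at 8.5 Mb, Vps41 at 11.2 Mb and Yae1d1 at 11.9 Mb. Toward higher coordinates lie Exoc2 at 0.9 Mb, Gmds at 1.9 Mb, Prpf4b at 5.0 Mb, Dsp at 8.2 Mb, Bloc1s5 at 8.7 Mb and Ogn at 19.7 Mb.

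Promoter sequences of RefSeq (GRCm38.p6, windows of 300 bases around the start) were matched for 9 of the 10 members and searched on both strands for the E2F motifs TTTCCCGC, TTTGGCGC, TTTCGCGC, TTTGCCGC and TTTGGGCG. One or more of these motifs stood in 2.76% of 32851 promoters and in the promoters of 3.17% of 27025 genes. Among the members 1 of 9 held one, Vps41, whose motif lies on the minus strand of the window at base -65 from the start. One of the E2f3 promoters also held the motif, at base -11. Both are shown with the motif in capitals, together with the promoter of Yae1d1, the member with the largest difference in 3bKI, which held none of these letters.
Vps41 (chr13:18717042-18717341, + strand): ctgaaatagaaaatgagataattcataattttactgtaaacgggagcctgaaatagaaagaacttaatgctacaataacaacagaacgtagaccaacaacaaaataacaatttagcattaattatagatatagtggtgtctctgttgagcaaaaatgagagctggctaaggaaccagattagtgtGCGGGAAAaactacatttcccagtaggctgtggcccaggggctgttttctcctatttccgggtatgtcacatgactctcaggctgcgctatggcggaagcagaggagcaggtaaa
E2f3 (chr13:29986014-29986313, - strand): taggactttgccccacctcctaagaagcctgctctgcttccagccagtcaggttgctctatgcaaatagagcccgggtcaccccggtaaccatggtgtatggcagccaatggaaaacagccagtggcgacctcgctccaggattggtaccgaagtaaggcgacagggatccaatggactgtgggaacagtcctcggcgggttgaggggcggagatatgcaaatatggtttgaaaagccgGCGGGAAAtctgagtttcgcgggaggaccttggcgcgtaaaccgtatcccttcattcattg
Yae1d1 (chr13:17993302-17993601, - strand): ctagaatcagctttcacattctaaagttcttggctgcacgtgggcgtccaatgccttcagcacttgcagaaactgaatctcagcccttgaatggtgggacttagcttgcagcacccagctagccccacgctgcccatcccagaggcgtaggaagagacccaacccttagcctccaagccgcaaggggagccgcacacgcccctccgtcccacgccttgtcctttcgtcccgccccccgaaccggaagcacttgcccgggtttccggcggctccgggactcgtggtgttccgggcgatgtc
A match is a description of the letters and not a measured binding site.

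None of the 25 member probe sets differed from wt in 3aKO at an adjusted p under 0.05 (limma, Benjamini-Hochberg over all probe sets), where 0.286% of all probe sets were called. At an unadjusted p under 0.05 none differed in the first normalization, and in the second 1 did, Dsp 1427610_at at -0.36, which was not called after adjustment. In 1KI, 23 of 25 were called, 11 higher and 12 lower than wt, beside 29.2% of all probe sets, 14.3% higher and 14.9% lower. In 3bKI, 16 of 25 were called, 7 higher and 9 lower, beside 27.7% of all, 14.5% higher and 13.2% lower. Against 3aKO, 22 were called in 1KI (31.3% of all) and 19 in 3bKI (31.4% of all). Because the members were chosen by these contrasts, nothing is read from the excess over all probe sets.

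Both knock-ins differed from wt in the same direction at 16 member probe sets, 7 higher and 9 lower, beside 13.3% of all probe sets. A further 7 were called in 1KI and not in 3bKI, none in 3bKI and not in 1KI, none in opposite directions, and 2 in neither. Of the 10 genes, 9 had at least 1 probe set called the same way in both knock-ins, and Gmds was the exception. The share of all genes with such a probe set was not computed, and genes with more probe sets have more chances of 1. Nothing is read from this count of genes. The ranges of the arrays did not overlap between 1KI and wt at 7 member probe sets (1.42% of all probe sets) and between 3bKI and wt at 7 (6.11% of all), with 4 in both, at Zscan26, Exoc2, Zkscan3 1415689_s_at and Vps41 1433666_s_at. The share of all probe sets with ranges apart in both knock-ins was not computed. In 3aKO against wt no member had ranges apart (0.0133% of all). Whether a difference that passed in 1KI and missed the threshold in 3bKI differs between them was not tested. A carried chromosome segment and an effect of the inserted gene cannot be told apart in these groups, since no genotype at a linked site was measured.

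**Figure D1:**
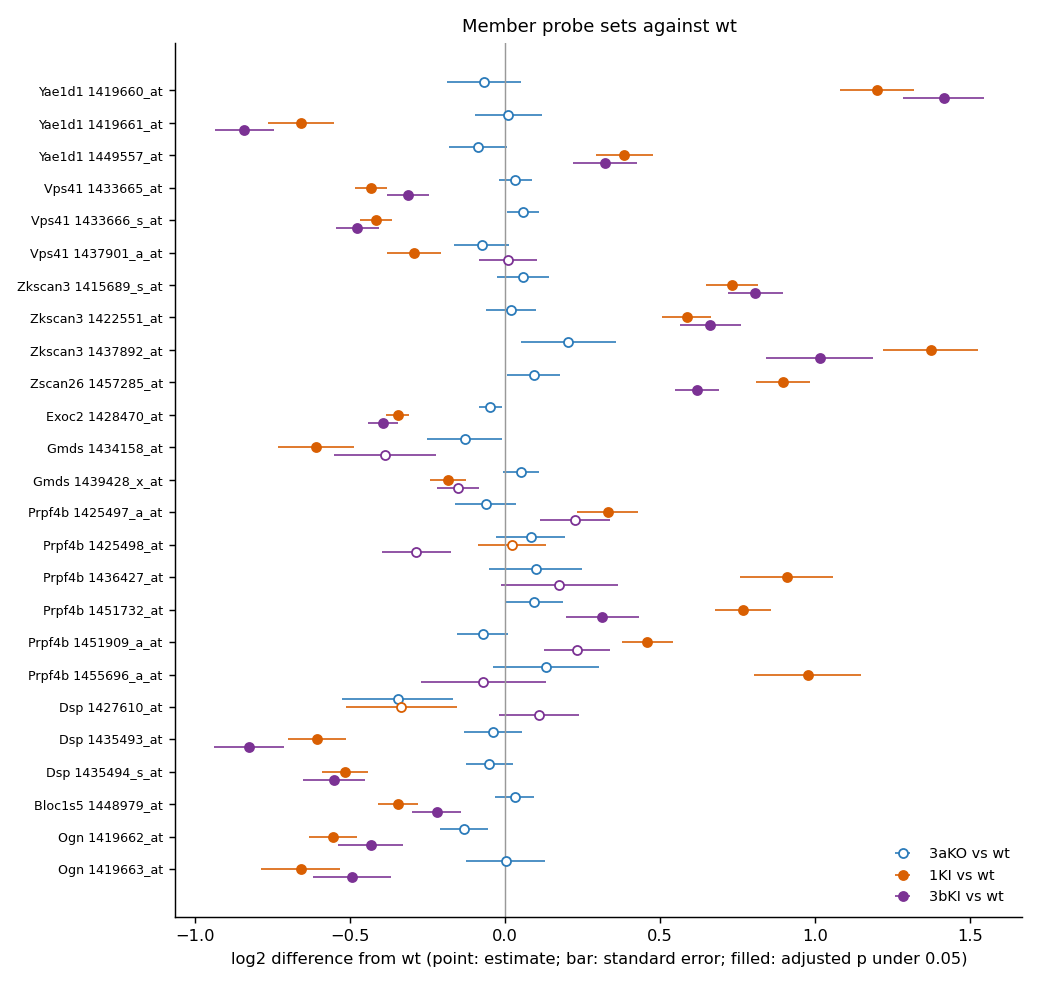
Log2 difference from wt of each of the 25 member probe sets in 3aKO, 1KI and 3bKI (horizontal axis), with genes ordered by position; points are estimates, bars are standard errors, filled points have an adjusted p under 0.05. All 25 points of 3aKO are open, and 16 probe sets are filled in both knock-ins on the same side of 0.

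Zscan26 and Zkscan3, the zinc finger genes, were higher in both knock-ins. Zscan26 (probe set 1457285_at) had a lowest, median and highest log2 signal of 9.00, 9.25 and 9.47 in wt, 9.15, 9.35 and 9.50 in 3aKO and 9.93, 10.07 and 10.99 in 1KI. In the second normalization wt spanned 8.92 to 9.41, and the 3bKI arrays read 9.80, 9.63, 9.78, 9.71 and 10.02. Every array of both knock-ins lay above every wt array. The log2 difference from wt was 0.90 (SE 0.086) in 1KI, 0.62 (SE 0.072) in 3bKI and 0.09 (SE 0.086) in 3aKO.

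Zkscan3, known as a repressor of autophagy genes, was read by 3 probe sets, and all 3 were higher in both knock-ins. At 1415689_s_at wt spanned 8.59 to 9.15 with a median of 8.78, 3aKO spanned 8.77 to 8.97, and 1KI spanned 9.26 to 10.42 with a median of 9.46. The 3bKI arrays read 9.32, 9.74, 9.19, 9.69 and 9.86, above the wt arrays of that normalization, which reached 9.10. The groups did not overlap in either knock-in. Differences at 1415689_s_at, 1422551_at and 1437892_at were 0.73, 0.59 and 1.37 in 1KI, with no overlap with wt at any of them. In 3bKI they were 0.81, 0.66 and 1.01, with overlap at 1422551_at and 1437892_at. In 3aKO they were 0.06, 0.02 and 0.20.

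Yae1d1 had the largest difference among the members in 3bKI, and its probe sets went opposite ways. At 1419660_at wt spanned 6.98 to 8.46 with a median of 7.25, 3aKO spanned 6.98 to 7.45, and 1KI spanned 7.92 to 8.81 with a median of 8.68. The 3bKI arrays read 8.86, 8.68, 8.99, 8.70 and 8.96. The value of 8.46 belonged to 1 wt array, replicate 11, and the other 11 wt arrays reached no more than 7.42, below every 1KI array. The difference from wt was 1.20 (SE 0.12) in 1KI, 1.42 (SE 0.13) in 3bKI and -0.07 (SE 0.12) in 3aKO.

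At Yae1d1 1419661_at both knock-ins were lower than wt instead. The wt arrays spanned 6.72 to 7.47, the 3aKO arrays 7.10 to 7.51 and the 1KI arrays 5.49 to 6.90, and the 3bKI arrays read 6.38, 6.08, 6.29, 6.05 and 6.54. Differences were -0.66 (SE 0.11) in 1KI and -0.84 (SE 0.095) in 3bKI. At 1449557_at the knock-ins were again higher, by 0.38 in 1KI and 0.32 in 3bKI, with every 3bKI array inside the range of wt. Probe sets of 1 gene that disagree in direction leave the direction of the Yae1d1 transcript level unsettled, and probe sequences were not used here.

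Among the vesicle tethering genes, Vps41, Exoc2 and Bloc1s5 were lower in both knock-ins. Vps41 at 1433666_s_at spanned 9.70 to 10.11 in wt with a median of 9.92, 9.80 to 10.20 in 3aKO and 9.34 to 9.61 in 1KI. The 3bKI arrays read 9.28, 9.49, 9.18, 9.48 and 9.43, below the lowest wt value of that normalization, 9.63. The differences were -0.42 (SE 0.052) and -0.48 (SE 0.071). At 1433665_at they were -0.43 and -0.31, with 3bKI overlapping wt. At the third probe set, 1437901_a_at, 1KI differed by -0.29 and 3bKI by 0.01.

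Exoc2 (1428470_at), the member nearest to E2f3, was lower in both knock-ins with no overlap with wt. The wt arrays spanned 7.37 to 7.56 with a median of 7.45, the 3aKO arrays 7.30 to 7.50 and the 1KI arrays 6.93 to 7.22. The 3bKI arrays read 7.09, 7.00, 6.85, 7.16 and 7.10, below the lowest wt array of that normalization at 7.36. The differences were -0.35 (SE 0.036) in 1KI and -0.39 (SE 0.047) in 3bKI. Bloc1s5 (1448979_at) differed by -0.35 (SE 0.064) in 1KI and -0.22 (SE 0.079) in 3bKI. Its 3bKI arrays, at 9.62, 9.16, 9.31, 9.37 and 9.60, overlapped the wt range of 9.38 to 9.81.

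Gmds was called against wt in 1KI at both probe sets and in 3bKI at neither, and the difference between the knock-ins was not tested. At 1434158_at wt spanned 6.23 to 7.23 with a median of 6.90, 3aKO 6.41 to 7.22 and 1KI 5.66 to 6.89. The 3bKI arrays were spread widely, at 6.03, 6.34, 6.49, 7.33 and 5.93. The difference was -0.61 (SE 0.12) in 1KI and -0.39 (SE 0.16) in 3bKI. Without the 3bKI array at 7.33 the latter was -0.61 and was called, as it was at -0.45 without wt replicate 10. The second probe set, 1439428_x_at, was dim, with wt between 2.70 and 3.19, and differed by -0.18 in 1KI and -0.15 in 3bKI. Against 3aKO it was called in 3bKI, at -0.25.

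Dsp and Ogn, genes of cell junctions and of the matrix, were lower in both knock-ins. Dsp at 1435493_at spanned 8.80 to 9.38 in wt, 8.85 to 9.28 in 3aKO and 8.14 to 9.20 in 1KI. Those of 3bKI read 8.32, 7.72, 8.10, 8.62 and 8.54, all below wt. Differences were -0.61 (SE 0.095) in 1KI and -0.83 (SE 0.11) in 3bKI, and -0.52 and -0.55 at 1435494_s_at. The third Dsp probe set, 1427610_at, was called in neither knock-in, at -0.33 and 0.11, and its difference in 3aKO was -0.35.

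Ogn (1419662_at) had a median of 6.39 in wt, with a range of 6.06 to 6.71, and spanned 5.52 to 6.12 in 1KI. In 3bKI the arrays read 5.78, 6.23, 6.11, 5.67 and 5.58. The groups overlapped in both knock-ins, with differences of -0.56 (SE 0.077) and -0.43 (SE 0.11), and -0.66 and -0.49 at 1419663_at. Ogn is a gene of matrix-producing cells. Of 9 stellate cell and fibroblast markers, none was higher and 1 was lower in 1KI, and 1 was higher and 4 were lower in 3bKI. The mean log2 signal of these 9 ranged from 9.47 to 10.2 in wt, 9.38 to 9.93 in 1KI and, in the second normalization, 9.38 to 10.1 in wt and 9.35 to 9.57 in 3bKI. Their part in the Ogn difference was not tested. In whole liver RNA, fewer cells of a type and less RNA per cell cannot be told apart.

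**Figure D2:**
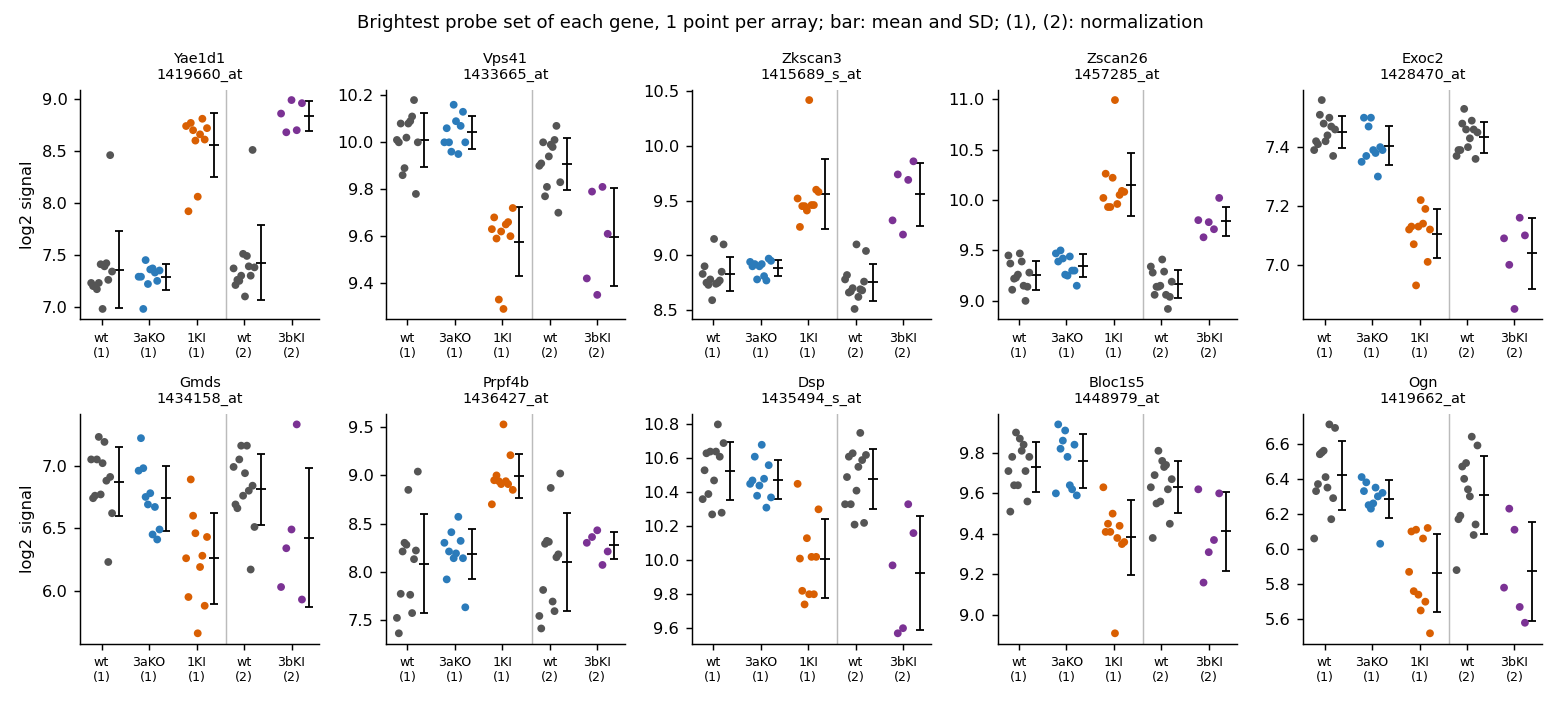
Log2 signal (vertical axis) of the brightest probe set of each member on every array of wt, 3aKO and 1KI in normalization 1 and of wt and 3bKI in normalization 2; points are arrays and bars are the mean and SD. The ranges of 3aKO and wt overlap in every panel, and the Exoc2 and Zscan26 arrays of both knock-ins lie apart from wt.

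Prpf4b was the member in which the knock-ins differed most in what was called. Of its 6 probe sets, 5 were called in 1KI, all higher, and 1 in 3bKI. At 1436427_at wt spanned 7.36 to 9.04, 3aKO 7.63 to 8.57 and 1KI 8.70 to 9.53, and the 3bKI arrays read 8.30, 8.36, 8.43, 8.07 and 8.21, all inside the wt range. The difference was 0.91 (SE 0.15) in 1KI and 0.18 (SE 0.19) in 3bKI. At 1451732_at, the probe set called in both, it was 0.77 (SE 0.091) and 0.31 (SE 0.12). The other probe sets gave 0.33, 0.02, 0.46 and 0.98 in 1KI and 0.23, -0.29, 0.23 and -0.07 in 3bKI, for 1425497_a_at, 1425498_at, 1451909_a_at and 1455696_a_at.

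E2f3 itself was read by 2 probe sets, and neither was called against wt in any genotype. At 1427462_at the difference was -0.17 in 3aKO, 0.01 in 1KI and 0.20 in 3bKI, and at 1434564_at it was -0.25, -0.03 and -0.24. Against 3aKO, 1KI was higher by 0.18 and 0.22 at these probe sets, both called, and 3bKI was higher by 0.40 at 1427462_at, also called. No source used here says which E2f3 isoform these probe sets read, so they do not check the labels.

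Over the whole neighbourhood, the shares called were close to those of all probe sets. Within 20 Mb of E2f3, 26.3% of 467 probe sets were called in 1KI against wt and 28.5% in 3bKI, and 0 in 3aKO. Without the members the shares were 22.7% and 26.6% of 440 probe sets. On the rest of chromosome 13 they were 28.9% and 30.1% of 904. By distance, 19% of 105 probe sets within 5 Mb were called in 1KI and 15.2% in 3bKI, and 30.2% and 32.9% of 149 between 15 and 20 Mb. The median log2 difference within 20 Mb was -0.04 in 1KI and -0.02 in 3bKI, beside -0.03 and 0.01 over all probe sets. Within 20 Mb, 56 probe sets (12%) were called the same way in both knock-ins, 16 of them members, beside 13.3% of all probe sets.

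**Figure D3:**
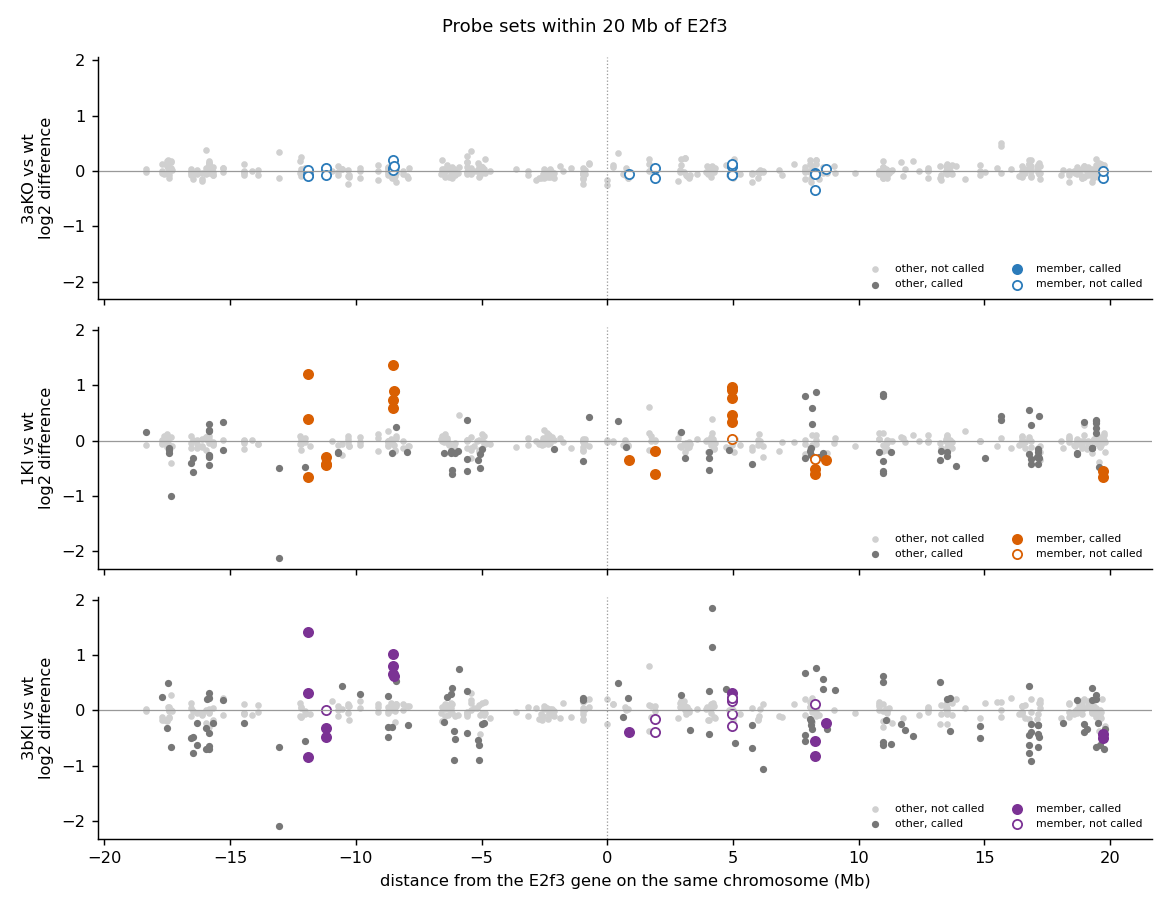
Log2 difference from wt (vertical axis) against distance from E2f3 in Mb (horizontal axis) for the 467 probe sets within 20 Mb, in 3aKO, 1KI and 3bKI; coloured points are members. No probe set is called in 3aKO, and called probe sets of both signs lie along the whole window in both knock-ins.

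Neighbours outside the member list included larger differences. Sugct, a mitochondrial coenzyme A transferase gene 13.05 Mb from E2f3, was lower by -2.12 (SE 0.25) in 1KI and -2.08 (SE 0.30) in 3bKI, and differed by 0.34 in 3aKO. Snrnp48 differed by 0.87 and 0.76, Rreb1 by 0.80 and 0.68 and Gcnt2 by 0.80 and 0.62. Nid1 differed by -0.56 and -0.77 and Kif13a by -0.43 and -0.91. Each of these values is of 1 probe set, the one with the largest mean size, and other probe sets of 3 of these genes went the other way. Of 8 Gcnt2 probe sets 2 were higher and 2 lower in both knock-ins, the latter at -0.37 and -0.62 in 1KI and 3bKI and at -0.54 and -0.58. Of 5 Rreb1 probe sets 1 was higher and 1 lower in both, the latter at -0.31 and -0.45. None of the other 3 Snrnp48 probe sets was called in either knock-in. Of 5 Kif13a probe sets 1 was lower in both, and another was higher in 1KI by 0.28. Both Sugct probe sets and 2 of 3 of Nid1 were lower in both. At the edge of the window, Iars at 19.78 Mb differed in 1KI by -0.02 and -0.21 and in 3bKI by -0.34 and -0.28. Chrm3, just outside at 20.03 Mb, differed by -0.06 and -0.21.

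One wt array, replicate 11, carried knock-in-like values at some of these genes and not at others, which was noticed after the values were seen. At Yae1d1 it read 8.46, 6.72 and 7.82 in the 3 probe sets, where the other 11 wt arrays spanned 6.98 to 7.42, 6.98 to 7.47 and 6.72 to 7.32. All 3 values lay on the side of the knock-ins. It was also the lowest wt array in all 3 Vps41 probe sets and in Exoc2, where it read 7.37 beside 7.39 in the next lowest. At Vps41 1433665_at and 1433666_s_at and at Exoc2 it nevertheless lay above every 1KI array. It read 9.78, 9.70 and 7.37 there, where 1KI reached 9.72, 9.61 and 7.22. At Vps41 1437901_a_at it read 8.63, inside the 1KI range of 8.41 to 9.09. At Sugct it read 4.52, where the other wt arrays spanned 7.21 to 7.70, 3aKO 7.19 to 7.90, 1KI 4.50 to 6.58 and 3bKI 4.93 to 5.24. At Zkscan8, a zinc finger gene 8.4 Mb from E2f3, it read 5.96 beside 4.47 to 4.95 in the other wt arrays and 5.47 to 5.83 in 1KI. The 3bKI arrays read 5.21, 4.89, 5.11, 5.51 and 5.25 at Zkscan8, above the other wt arrays of that normalization, which reached 4.77, and below replicate 11 at 5.86.

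The same array lay among the other wt arrays at the rest of the members. At Zkscan3 1415689_s_at it read 8.85, between 8.59 and 9.15, and at Zscan26 it read 9.14, between 9.00 and 9.47. Over all probe sets, 39 lay at least 0.5 outside the range of the other wt arrays in replicate 11. Of these 39, 4 lay within 20 Mb of E2f3 (10.3%, where 1.04% of all probe sets lie there), all 4 toward both knock-ins. They are of Sugct, Zkscan8 and, with 2 probe sets, Yae1d1, a member chosen by the knock-in contrasts. These shares were taken after the array was noticed and carry no test. Replicates 7 and 12 had 401 and 238 probe sets at least 0.5 outside the range of the other wt arrays, with 3 and 7 within 20 Mb. Of those within 20 Mb all 3 lay toward both knock-ins in replicate 7, where 186 of the 401 did, and none of 7 did in replicate 12. Replicate 11 was the wt array farthest to the side of 1KI at 7 of the 25 member probe sets, replicate 12 at 6 and replicate 7 at 4. The probe sets of replicate 11 that lay toward both knock-ins numbered 15, with 5 on chromosome 13 and 3 on chromosome 7. One of the latter, Gdpd3, read 5.28 beside 10.41 to 11.02 in the other wt arrays and 4.37 to 7.90 in 1KI. No genotype at a linked site was measured, so whether this array and the knock-ins share a chromosome segment was not tested. Without replicate 11, the Yae1d1 1419660_at difference was 1.30 in 1KI and 1.51 in 3bKI.

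**Figure D4:**
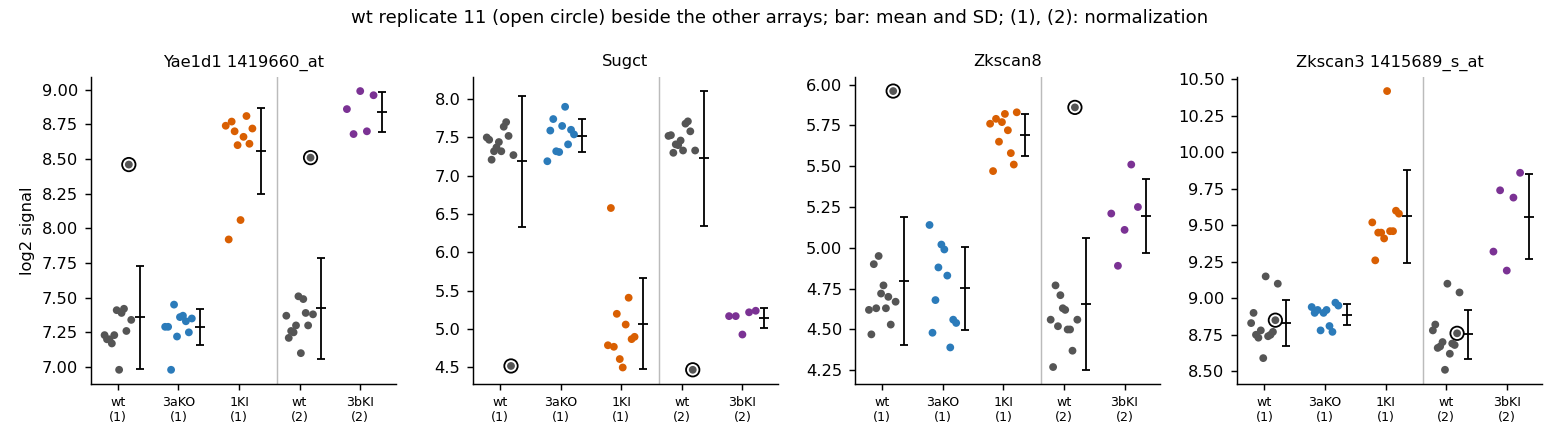
Log2 signal (vertical axis) at Yae1d1, Sugct, Zkscan8 and Zkscan3 on every array; points are arrays, bars are the mean and SD, and the open circle marks wt replicate 11. In normalization 1 the circled array lies in the 1KI range at Yae1d1 and Sugct, at 8.46 and 4.52. At Zkscan8 it lies above every 1KI array, at 5.96, and at Zkscan3 it sits with wt, at 8.85.

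The signals of control probe sets moved with genotype. All 10 1KI arrays, all 5 3bKI arrays and wt replicates 1 and 2 had a higher level of the hybridization control probe sets, with a lowest value of 11.0 in 1KI, and the other 10 wt arrays and all 10 3aKO arrays had a lower one, at most 10.5. The poly-A control probe sets read 13.8 on all 5 3bKI arrays and at most 9.70 in wt. With the control level as a block, 16 member probe sets were called in 1KI against wt (9.26% of all probe sets) and 13 in 3bKI against wt (10.7% of all), 10 of them among the 16 above. The signs of the 23 and 16 differences called without it did not change. The blocked difference of a knock-in from wt is its difference from wt replicates 1 and 2, the only wt arrays of the higher level. A fit of the arrays of the higher level alone gives the same differences, with fewer arrays to measure the spread. It called 9 in 1KI (4.44% of all probe sets) and 6 in 3bKI (4.09% of all). The 9 were among the 23 above, and of the 6, 3 were among the 16 above and the other 3 were Prpf4b probe sets. In that comparison Yae1d1 1419660_at differed by 1.34 and 1.55, Zkscan3 1437892_at by 1.80 and 1.36, and Prpf4b 1436427_at by 1.55 and 0.80. The block added 3 Prpf4b probe sets to the calls of 3bKI, at 0.55, 0.80 and 0.56 for 1425497_a_at, 1436427_at and 1451909_a_at, where 0.23, 0.18 and 0.23 stood without it. It ended 7 calls in 1KI and 6 in 3bKI. Ended in both were Yae1d1 1449557_at, at 0.50 and 0.42, Ogn 1419662_at, at -0.33 and -0.15, Ogn 1419663_at, at -0.56 and -0.43, and Bloc1s5, at -0.23 and -0.09. Ended in 1KI were also Vps41 1437901_a_at, Gmds 1434158_at and Dsp 1435493_at, at -0.24, -0.64 and -0.46, and in 3bKI Vps41 1433665_at and Prpf4b 1451732_at, at -0.31 and 0.53.

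RNA integrity was read as the log2 signal of probe sets at the 3' end of the Gapdh and actin transcripts less that at the 5' end. A larger value means relatively less 5' signal, as in more degraded RNA. The measure ranged from 0.275 to 0.36 in 3bKI, the lowest of the groups of its normalization. It ranged from 0.475 to 0.65 in wt and from 0.545 to 0.755 in 3aKO of that normalization. With this measure as a covariate, 5 member probe sets were called in 3bKI against wt, at Yae1d1, Zkscan3, Zscan26 and Exoc2, beside 2.85% of all probe sets. Among the 11 calls ended, Zkscan3 1437892_at stood at 1.15, where it was 1.01 without the covariate, Zkscan3 1422551_at at 0.65 and Dsp 1435493_at at -0.76. Bloc1s5 stood at -0.08 and Prpf4b 1451732_at at 0.05. In 1KI the covariate left all 23 calls, beside 30.4% of all. In that normalization 1KI replicate 6 stood at 1.75 and every other array between 0.445 and 0.745, so the covariate rests mostly on 1 array. The calls kept in 1KI therefore do not settle the part of RNA integrity there. In 3bKI the measure did not overlap that of wt or 3aKO, so the fit separates it poorly from genotype. The part of RNA integrity in the 3bKI differences was not tested beyond this. The hepatocyte markers had mean log2 signals of 13.01 to 13.27 in wt and 13.14 to 13.42 in 1KI.

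The partners of the members in their complexes and pathways were counted in 9 lists, which were drawn up with earlier results known. No gene of these lists was called in 3aKO against wt. Of 8 other exocyst subunits 3 were lower in 1KI and 2 in 3bKI, among them Exoc8 at -0.29 and -0.37. Of 9 other HOPS and CORVET subunits, 3 were higher and 2 lower in 1KI, and 1 was higher and 1 lower in 3bKI. Of 9 other BLOC-1 and BLOC-2 subunits, none was higher and 3 were lower in 1KI, and 2 were higher and 1 lower in 3bKI. Bloc1s4 differed by -0.25 and -0.51. Of 11 other genes of GDP-fucose synthesis and use, 2 were higher and 2 lower in each knock-in, and Slc35c1, the Golgi GDP-fucose transporter, was higher by 0.72 (SE 0.084) in 1KI and 0.92 in 3bKI.

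Of 26 other SCAN domain zinc finger genes, 7 were higher and none lower in 1KI, and 3 were higher and 3 lower in 3bKI. Zkscan1, on another chromosome, differed by 0.42 in 1KI and -0.22 in 3bKI, the latter not called. Of 14 other spliceosome kinase and tri-snRNP genes, 7 were higher and none lower in 1KI, and 1 was higher and 3 were lower in 3bKI. The CDC-like kinases Clk1, Clk2 and Clk3, which phosphorylate splicing factors, differed by 0.58, 0.56 and 0.38 in 1KI and by 0.10, 0.17 and 0.19 in 3bKI. Of 12 other desmosome and keratin genes, 1 was higher and 1 lower in 1KI, and 1 was higher and 3 were lower in 3bKI, with Dsc2 lower by -0.45 and -0.31. Of 13 other small leucine-rich proteoglycan genes none was called in 1KI, and in 3bKI Prelp was higher by 0.70 and Lum lower by -0.42. Of 9 other iron-sulfur assembly genes, 1 was higher and 1 lower in 1KI, and 2 were higher and none lower in 3bKI. Each list gene was counted by its brightest probe set. These counts stand beside 29.2% and 27.7% of all probe sets called. In the fit with 1 probe set per gene, 27.6% of 18193 genes were called in 1KI, 1850 higher and 3176 lower. In 3bKI 29.2% were called in that fit, 2433 higher and 2885 lower.

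Within a genotype, no pair of members passed the test of varying together. Of 135 pairs and genotypes (45 pairs in each of wt, 3aKO and 1KI), none passed an adjusted p under 0.05 by permutation, and 13 had an unadjusted p under 0.05, 8 of them in 1KI. Without 1KI replicate 6 the count of 8 was 2. The largest was between Prpf4b and Bloc1s5 in 1KI, with Pearson r of -0.92 (permutation p = 0.0023, adjusted p = 0.31) and Spearman rho of -0.58 (permutation p = 0.081, adjusted p = 0.73) over 10 arrays. Without the 2 arrays farthest from the median r was -0.69.

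The genes most like each member were listed across the 32 arrays of the first normalization, after the genotype means were removed. Of 30 such genes, 3 for each member, 1 lay within 20 Mb of E2f3, where 1.04% of all probe sets lie. With a share that small, the count does not show whether the members vary with their neighbours. The 1 gene was Snrnp48 for Zscan26, by another probe set than that given above, with r of 0.85, or 0.65 without 1KI replicate 6. Prpf4b was most like Rps9, Rps24 and Srrm2, with r of 0.92, 0.91 and 0.90. Yae1d1 was most like Slx4ip, with r of 0.75, Exoc2 like 3830406C13Rik with 0.67, Zkscan3 like Kansl3 with 0.85 and Vps41 like Spg21 with 0.75. Dsp was most like Akr1c6 with 0.81, Gmds like Mien1 with 0.81, Bloc1s5 like Bcap29 with 0.79 and Ogn like Fam136a with 0.71. These values share arrays and array quality and are given with no test.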

How the data were processed

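Liver RNA was labelled as biotin cRNA from 5 ug of total RNA and hybridised to Affymetrix mouse arrays, per the labels' protocols. The authors deposited log2 values in 2 separate normalizations; no source used here gives the summary method, scale or centring, and the log2 scale was read from a range of 2.13 to 15.06. Genes were named from the platform annotation: of 45101 probe sets, 64 controls were left out, and 34945 of the other 45037 had 1 symbol, 932 several and 9160 none. Distances come from the RefSeq table of GRCm38.p6, with 34741 probe sets matched. The files name no build.

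Each normalization was fitted apart with limma 3.58.1 (lmFit and eBayes, no trend, R 4.3.3) over all 45037 probe sets and all its arrays, with Benjamini-Hochberg adjustment at 0.05. The fit was tested on simulated data of 45037 probe sets with 200 changed. For 1KI against wt it recovered 85% of changes of 0.5 and 99% of changes of 1 on the log2 scale. It made 12 false calls (6.12% of its calls). Noise was drawn independently for each probe set, with no effect shared across an array, such as one of the control level. That false share therefore does not carry over to the real comparison, where 29.2% of all probe sets were called. Pairs of members were tested with 100000 permutations in Python 3.11.15. The number of arrays limits the precision.

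All probe sets of the members and E2f3 are named. Of other neighbours, up to 6 with the largest mean size among those called the same way in 2 comparisons with wt are named, with the genes nearest the window's edge, up to 3 genes of each list and the 3 genes most like each member. The members and lists were chosen with earlier results of these data known. Zkscan8 and Gdpd3 were named after their values were seen. Replicate numbers were not treated as pairs: correlations of same-numbered arrays' deviations ran from -0.36 to 0.31 over the pairs of groups and passed 0.1 in 4 of 10 pairs of 1KI and wt, 7 of 10 of 1KI and 3aKO, 6 of 10 of 3aKO and wt, 2 of 5 of 3bKI and wt and 1 of 5 of 3bKI and 3aKO. Alternatives left out each array, changed the normalization, the probe sets and the threshold, and added the control level, sex, RNA integrity or replicate number to the model.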

Additional observations from a re-analysis of the deposited data

Results flagged for a closer look

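In 12 of 75 groups of member values, 1 array lay far from the others of its genotype, where chance gives about 1 in 20 groups. The groups were those of 3aKO, 1KI and 3bKI. The wt arrays were not examined by this rule, and wt replicate 11 is described above. Of these, 8 were 1KI replicate 6, the array with the largest RNA integrity difference as defined above (1.75, with the median of 1KI at 0.50). It read 5.49 at Yae1d1 1419661_at, where the other 1KI arrays spanned 6.46 to 6.90. At Zkscan3 it read 10.42, 9.14 and 10.49 at 1415689_s_at, 1422551_at and 1437892_at, above others that reached 9.60, 8.50 and 9.35. At Zscan26 it read 10.99 (others 9.93 to 10.26) and at Bloc1s5 8.91 (others 9.35 to 9.63). At Prpf4b it read 7.43 at 1425497_a_at, below the others, and 9.69 at 1455696_a_at, above them. Its part in the 1KI differences was measured by leaving it out: all 23 calls against wt were kept. The other 4 were 3aKO arrays. Replicate 3 read 6.98 at Yae1d1 1419660_at (others 7.22 to 7.45), and replicate 4 read 7.51 at Yae1d1 1419661_at (others 7.10 to 7.28). Replicate 2 read 7.62 at Zkscan3 1437892_at (others 8.02 to 8.41), and replicate 9 read 6.03 at Ogn 1419662_at (others 6.23 to 6.41).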

How the results depend on the processing

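With each array left out in turn, the member probe sets called numbered 23 to 24 in 1KI against wt (26.8% to 30.2% of all probe sets) and 22 to 23 in 1KI against 3aKO (28.4% to 31.5%). They numbered 14 to 18 in 3bKI against wt (25.4% to 28.6%), 16 to 19 in 3bKI against 3aKO (27.9% to 31.9%) and 0 in 3aKO against wt (0.169% to 0.475%). All 23 and all 22 calls of 1KI were kept in every such fit, as were 13 of 16 and 15 of 19 of 3bKI. With 1 probe set per gene, of 10, the counts were 10 in both comparisons of 1KI and 8 in both of 3bKI, since fewer were tested. The shares of all genes called were 27.6% in 1KI and 29.2% in 3bKI against wt, and 31% and 34.2% against 3aKO. With the control level as a block the counts were 14 in 1KI against 3aKO (6.07% of all probe sets) and 10 in 3bKI against 3aKO (7.98%, or 11 calls with sex added). With arrays of the higher level alone they were 9 in 1KI (4.44%) and 6 in 3bKI (4.09%) against wt. All of these fits rest on wt replicates 1 and 2, the only wt arrays of the higher level. With RNA integrity as a covariate the counts were 5 in 3bKI against wt (2.85%) and 2 against 3aKO (0.455%). The cause of these losses was not tested. Against 3aKO, Ogn 1419662_at in 3bKI turned to 0.045 with the level block and 0.018 with sex added, and Dsp 1427610_at to -0.52 with RNA integrity. The replicate block gave 23 calls in 1KI (29.2% of all probe sets) and 16 in 3bKI (27.9%) against wt as a random term. As a fixed term it gave 23 (26.7%) and 18 (23.4%). The replicate numbers are not known to pair the samples. Of 186 alternative counts, 175 were within 1.5 times the main one. Among these 175 are all counts of 3aKO against wt and of member pairs, which were 0 in every fit. Many others leave out 1 array, so the number is not a measure of stability. A fit without the wt arrays of the higher level, chosen after the data were seen, gave 23 and 16 calls against wt (28.5% and 28% of all probe sets). In that fit all wt arrays had the lower control level and all knock-in arrays the higher one, so it cannot separate that level from genotype. No pair of members passed under any alternative.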
